A study of Stylophora pistillata with 18 samples.

Results

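The 88 gene models described here are abundant transcripts of the reef-building coral Stylophora pistillata that stood higher with both of the cyclic dinucleotides tested. They were selected on the measured values themselves, from 29419 models in all. Counts were expressed as CPM, the count of a model per 1000000 counts in its library. A model had to average at least 20 and under 1000 CPM in the control libraries, and its lowest CPM among 12 treated libraries had to exceed its highest CPM among 6 control libraries. Models were ranked by a score, the smaller of the cUA/control and cGAMP/control ratios of mean CPM. Of the 7404 models in that range of control level, 108 met the separation, which is the background share of 1.46%. The 100 highest scores were kept and 12 of these models were dropped because they lie on 7 scaffolds left out by the rule. The height of the members over the controls is therefore a description of the choice and was not tested.

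Cyclic dinucleotides are second messengers that enzymes of the cGAS family and related cGAS-like receptors make after sensing foreign nucleic acid. In vertebrates, 2'3'-cGAMP binds the receptor STING, which leads to transcription of interferon and NF-κB target genes. Cnidarians such as corals encode STING and cGAS-like receptors as well, and these animals lack the interferons of vertebrates. The deposited models carry no product names, and the 57 members matched to a RefSeq gene table have only LOC symbols, so no role can be given to any single member. Members without a LOC symbol are named by their model identifier alone.

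All groups were wild-type adult colonies held in seawater for 18 h. Controls received seawater alone, and the treated specimens received 250 µM 3'3'-cUA or 250 µM 2'3'-cGAMP. 3'3'-cUA joins uridine and adenosine, 2'3'-cGAMP joins guanosine and adenosine, and the linkages between their nucleotides also differ. Each treatment had 6 libraries, 3 labelled as colony 1 and 3 as colony 2, so only 2 colonies stand behind every group. Libraries are named by treatment, colony and specimen letter, as in control 1A. The labels do not say how far specimens of a colony are independent, so p-values measure the spread between specimens. RNA of whole specimens was sequenced, in which more cells of a type and more RNA per cell cannot be told apart.

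Total counts ran from 22175801 to 41800393 per library, and the smallest count of any member in any library was 283. Most libraries, but not all, sorted by their colony labels. The second principal axis of log2 CPM placed 8 libraries above 0 and 10 below it. On that axis 5 libraries, control 1A, cUA 1A, cUA 1B, cUA 2B and cGAMP 2C, lay on the other side from the rest of their labelled colony. Without overlap, 294 models differed between the sides of the axis and 1 between the labelled colonies. No member was among the 294, which the rule fixed in advance. Each side holds control and treated libraries, and in a member no control lies above a treated library. The sides were drawn from these same counts, so models that separate them arise by construction and the 2 counts are not a fair comparison. One model that is no member, Spis_XP_022784354_1, picked after its values were seen, ran from 12.6 to 32.0 CPM in the libraries above 0 and from 0.939 to 2.83 CPM below. Colonies are called labelled colonies below, since whether the labels are right was not tested. Control 1A and cUA 2A also stood apart in composition, with TMM factors of 0.714 and 0.619.

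Together the 88 members made up 0.650% ± 0.134 (SD, n = 6) of the counts in control libraries, 2.23% ± 0.354 with cUA and 3.07% ± 0.614 with cGAMP. The control libraries spanned 0.545% to 0.855%, cUA libraries 1.76% to 2.80% and cGAMP libraries 2.46% to 4.05%. The treated libraries did not overlap the controls, as the rule required of each member, whereas cUA and cGAMP libraries overlapped each other. The highest shares were in cGAMP 2A and cGAMP 1C, and the lowest treated share was in cUA 1A.

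**Figure D1:**
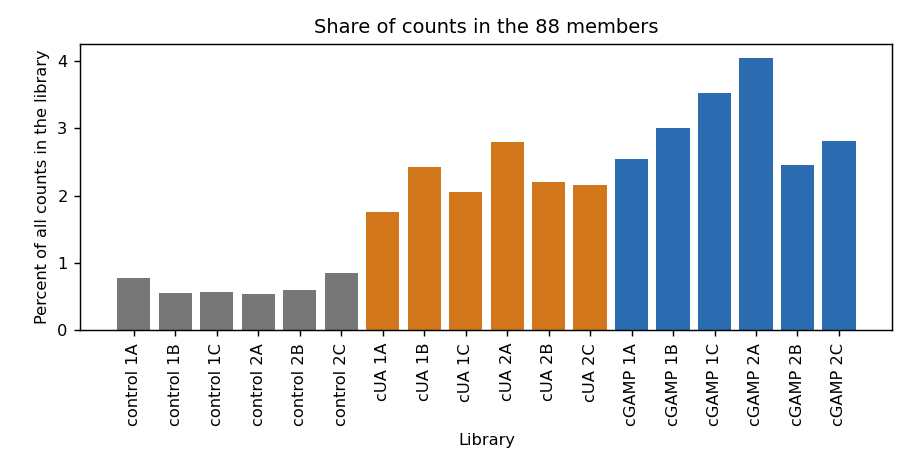
Percent of all counts that fell in the 88 members, 1 bar per library, gray for control, orange for cUA and blue for cGAMP. Control bars reach 0.855% at most, cUA bars run from 1.76% to 2.80%, and the highest bar is cGAMP 2A at 4.05%.

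By the rule, members averaged at least 20 CPM in controls and stood higher in treated libraries. The median over members of the group mean was 47.7 CPM in controls, 181 CPM with cUA and 224 CPM with cGAMP. The ratio of mean cUA to mean control CPM ran from 1.44 to 22.6 with a median of 2.98, and the ratio for cGAMP from 1.57 to 44.9 with a median of 3.94. More than 2-fold ratios were found in 74 members with cUA and 81 with cGAMP, and ratios over 5-fold in 23 and 31. Ratios over 10-fold were rare, in 3 members with cUA and 10 with cGAMP. In edgeR's quasi-likelihood test, 85 members were called higher with cUA, beside 5.91% of all 21375 tested models. With cGAMP all 88 were called higher, beside 9.22% of all tested models. Both comparisons share the controls and both were used to choose the members, so nothing is read from these counts. The 3 members not called with cUA were Spis_XP_022780583_1, Spis_XP_022795965_1 and Spis_XP_022809337_1, with adjusted p-values of 0.059, 0.058 and 0.0607.

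How far the members stood above control varied widely. In 23 members the smaller ratio was 5 or more, with a median control level of 35.6 CPM. Another 51 had a smaller ratio from 2 to under 5, at a median control level of 47.3 CPM, and 14 stayed under 2-fold, at 78.0 CPM. The gap and the spread below follow in part from the rule, since a model with a small ratio can separate its groups only where its libraries lie close together. The lowest treated library stood above the highest control library by a median factor of 1.93 in the first tier, 1.27 in the middle tier and 1.098 in the last. The median SD of log2 CPM in controls was 0.643 in the first tier and 0.245 in the last. Models of the last tier had more coding segments, a median of 13.5 against 6 in each of the others.

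**Figure D2:**
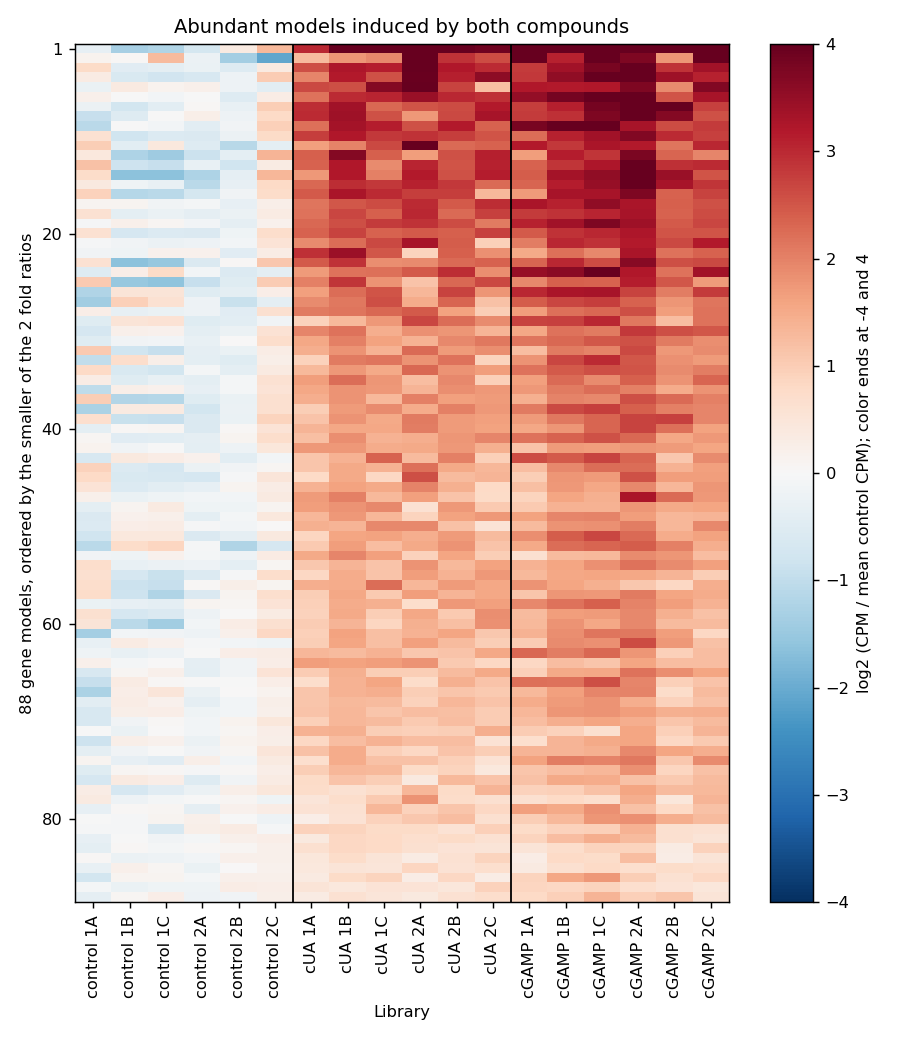
Level of each of the 88 members (rows, highest score at the top) in each of 18 libraries (columns), as log2 of CPM over the mean control CPM. Red is above the control mean and blue below, and the color scale is capped at both ends. Every treated library is above every control library in each row by the rule, the upper rows are the deepest red, and cGAMP 1C and cGAMP 2A are the deepest columns.

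The highest score belonged to Spis_XP_022783981_1, with 8 coding segments on the minus strand of scaffold NW_019217845.1 (897870 to 902803). Its lowest, median and highest CPM were 9.06, 16.0 and 56.0 in controls, 183, 520.4 and 905 with cUA, and 435, 774 and 2265 with cGAMP. The lowest treated library, cUA 1A, was 3.27-fold above the highest control, control 2C. Its mean ratios were 22.6 with cUA and 44.9 with cGAMP. Per 1000 coding bases it ranked 62 among the 88 members in controls, 15 with cUA and 8 with cGAMP.

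Spis_XP_022786308_1, a short model of 522 coding bases, came next with ratios of 13.2 and 29.0 and was the least even of all members. Its lowest, median and highest CPM were 13.1, 52.6 and 134 in controls, 134, 275 and 3124 with cUA, and 189, 1046 and 4120 with cGAMP. A single library, cUA 2A, carried its cUA mean, and the other 5 cUA libraries lay at or under 411 CPM. The treated libraries cleared the controls by a factor of only 1.0015, the narrowest gap of any member, because control 1C at 133.9 CPM nearly met cUA 1A at 134.1 CPM. Without cUA 2A its log2 fold change with cUA was 2.27 against 3.95 with all libraries, and its call was lost.

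The other member at over 10-fold with both compounds was Spis_XP_022797663_1. It ran at 22.5, 25.6 and 54.1 CPM (lowest, median, highest) in controls, 193, 290.0 and 637 CPM with cUA and 224, 329 and 543 CPM with cGAMP. Its ratios, 10.2 and 11.0, were nearly equal, and cUA 2A was again its highest cUA library. LOC111340346 (Spis_XP_022802911_1) had a lower cUA ratio, at 13.0, 16.7 and 44.4 CPM in controls, 85.6, 195 and 344 CPM with cUA and 158, 246 and 598 CPM with cGAMP. Its ratios were 9.12 and 14.1, and its lowest treated library, cUA 1A, was 1.93-fold above its highest control, control 2C.

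Spis_XP_022797661_1 is the longest member, with 16182 coding bases in 84 segments, on the same scaffold as Spis_XP_022797663_1. Its controls were close together at 21.2, 28.0 and 36.6 CPM, while cUA libraries lay at 66.0, 181 and 499.8 CPM and cGAMP libraries at 106, 261 and 379 CPM. The low treated values were cUA 2C and cGAMP 2B, both of labelled colony 2, whose library cUA 2A was the highest. LOC111323650 (Spis_XP_022782793_1), with 432 coding bases, had controls at 48.7, 68.6 and 85.7 CPM, cUA libraries at 310.1, 558 and 762 CPM and cGAMP libraries at 399.7, 887.5 and 1432 CPM. Its treated libraries were at least 3.62-fold above its highest control.

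**Figure D3:**
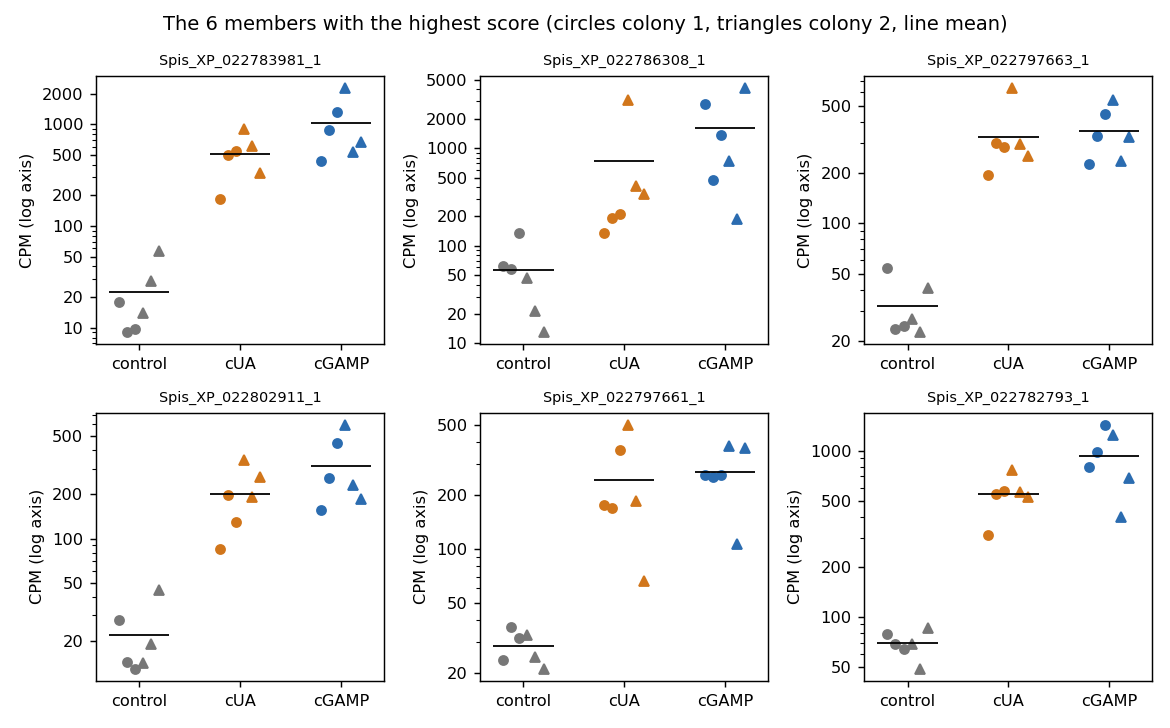
CPM on log axes of the 6 members with the highest score, 1 point per library, with a line at each group mean. Circles are labelled colony 1 and triangles labelled colony 2. In each panel both treated groups lie above the controls, and the cUA group of Spis_XP_022786308_1 has 1 point at 3124 CPM with the others at or under 411 CPM.

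The other 6 of the 12 highest scores had cUA ratios from 6.84 to 7.31 and cGAMP ratios from 6.97 to 13.8. LOC111321016 (Spis_XP_022779509_1) had the widest difference between compounds among them. Its lowest, median and highest CPM were 18.1, 35.0 and 73.9 in controls, 174, 277 and 381 with cUA, and 230.1, 452 and 940.2 with cGAMP. Its cUA and cGAMP libraries overlapped. LOC111339711 (Spis_XP_022802161_1) had nearly equal ratios, 6.84 and 6.97, at 12.6, 22.1 and 85.2 CPM in controls, 106, 187 and 429 CPM with cUA and 107, 205 and 458 CPM with cGAMP. Spis_XP_022786790_1 was the evenest of the 6 in the treated libraries, from 490.4 CPM in cGAMP 1A to 1374 CPM in cGAMP 2A, over controls of 61.0 to 177 CPM.

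The most abundant member in controls was LOC111336823 (Spis_XP_022798721_1), at 576, 648 and 1205 CPM. It reached 1569, 1872 and 2567 CPM with cUA and 1976, 2485 and 3349 CPM with cGAMP. Its ratios were 2.64 and 3.41, and control 1A stood apart from the other controls, which ended at 790.2 CPM. Per 1000 coding bases it was also the first of the 88 in controls, at 669 ± 212 CPM (SD, n = 6). LOC111340507 (Spis_XP_022803099_1) followed at 497 ± 88.3 CPM per 1000 coding bases and Spis_XP_022805827_1 at 482 ± 140.0, and these 3 did not differ beyond their spread. With cGAMP the order changed, and Spis_XP_022786308_1 headed it at 3103 ± 2966 CPM per 1000 coding bases, a spread nearly as large as its mean. The median member stood at 35.7 CPM per 1000 coding bases in controls, 115 with cUA and 132 with cGAMP.

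Members with high control levels mostly had ratios of 2 to 5. LOC111328927 (Spis_XP_022789210_1) had controls at 184, 261 and 554 CPM, cUA libraries at 638, 804 and 1351 CPM and cGAMP libraries at 691, 1015 and 1391 CPM. Control 1A was far above its other controls, and cUA 2A far above its other cUA libraries. LOC111345249 (Spis_XP_022808261_1) was the one model of the 8 with the highest control levels whose ratios both passed 5, at 5.03 and 7.29. It had controls at 50.0, 134 and 327 CPM, cUA libraries at 565, 778 and 1166 CPM and cGAMP libraries at 782, 965 and 1929 CPM. Its lowest controls were control 1B and control 1C and its highest control 2C.

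A few members stood only a little above control, but evenly. LOC111331686 (Spis_XP_022792583_1) had the narrowest treated range, with controls at 19.9, 25.4 and 28.4 CPM, cUA libraries at 32.7, 36.0 and 44.8 CPM and cGAMP libraries at 31.3, 39.2 and 42.6 CPM. Its highest treated library was 1.43-fold above its lowest. Spis_XP_022781308_1 was similar, with ratios of 1.58 and 1.66, and Spis_XP_022809337_1 had ratios of 1.495 and 1.65 at a control mean of 184 CPM. Over all members the highest treated library exceeded the lowest by a median of 2.67-fold and by at most 30.7-fold.

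At the limits of the rule, the last members by score were LOC111322843 (Spis_XP_022781775_1), Spis_XP_022809337_1 and Spis_XP_022777610_1, with scores of 1.51, 1.495 and 1.44. The first models past the rank limit scored 1.40, 1.38 and 1.38. The lowest control mean inside was 20.4 CPM, in LOC111323830 (Spis_XP_022783005_1), and the nearest model below the limit had 19.5 CPM. At the upper end LOC111336823, at 747 CPM, was the highest inside, and 1 model at 1274 CPM met the separation above the limit. At the same control level, 379 models had a score at least that of the lowest member but overlapping libraries, and the nearest of the models just outside had its lowest treated library at 0.998 of its highest control.

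Which library set the limit of a member was uneven. Control 2C was the highest control in 45 members, or 51.14%, against 28.43% of all models of the same control level, and control 1A in 17, or 19.32% against 15.57%. Among treated libraries cUA 1A was the lowest in 32 members, or 36.36%, against 3.88% of those models. In those models cUA 2A was the lowest treated library in 47.42%, and in 13 members, or 14.77%. The highest treated library was cGAMP 2A in 42 members, or 47.73% against 5.44%, and cGAMP 1C in 27, or 30.68% against 3.21%. These shares were not tested. They follow in part from the rule, which removes models that are low in any treated library or high in any control. Without cGAMP 2A and cGAMP 1C the median cGAMP/cUA ratio of the members was 1.13, against 1.31 with all libraries.

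The direct comparison of the compounds was not used to choose the members. The same treated values did enter the rule, whose score is the smaller of the 2 ratios, and this limits the comparison. Dose and time were matched, and this was the only pair of compounds compared. Mean CPM was higher with cGAMP than with cUA in 79 of 88 members, with a median ratio of 1.31 and a range of 0.833 to 2.20. In 20 members the ratio exceeded 1.5. Of the 81 models chosen by the same rule at 1 to under 20 CPM in controls, 72, or 88.9%, were also higher with cGAMP. The difference in labelled colony 1 was positive for 74 members and in labelled colony 2 for 78, with 66 members positive in both. In edgeR's fit, which uses TMM factors, the median log2 difference was 0.40 over the members and -0.05 over all tested models, with 82 members, or 93.18%, positive against 43.82% of the models. The tested models include those lowered by treatment, so they are no matched background. The excess of cGAMP over cUA in the members depended on scaling within the colonies. With TMM-scaled CPM, 82 members were higher with cGAMP in labelled colony 1 but 52 in labelled colony 2, with median ratios of 1.63 and 1.04.

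No member passed the test of cGAMP against cUA, nor did any other model, so the background is 0% of the 21375 models. At an unadjusted p under 0.05 there were 23 of 88 members, all higher with cGAMP, and 1830 of 21375 models. DESeq2 called 102 models and limma-voom 0, and neither called a member. The width of the intervals limits this comparison. The 95% interval of a member's log2 difference had a median width of 0.62 to either side, and in 51 members it reached a difference of 2-fold in one direction or the other. Without control 1A and cUA 2A together, 11 members were called higher with cGAMP, beside 1.44% of 21700 models. Without cUA 2A alone, 45 models and no member were called.

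**Figure D4:**
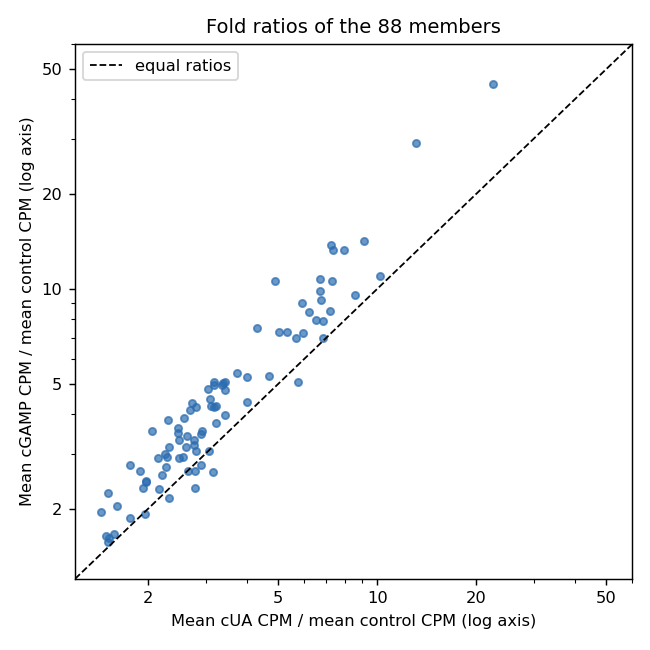
Ratio of mean CPM to the mean control CPM with cUA (horizontal) and with cGAMP (vertical), both on log axes, 1 point per member, with a dashed line of equal ratios. Both ratios share the control mean, so points are drawn along the diagonal by construction. Of the 88 points, 79 lie above the line, and the highest is at 22.6 and 44.9.

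The 4 members with the smallest unadjusted p between the compounds began with Spis_XP_022794017_1. It had cUA libraries at 134, 217 and 348 CPM and cGAMP libraries at 219.8, 404 and 524 CPM. The groups overlapped in cGAMP 2B, and the log2 difference was 0.87 ± 0.25 (SE), with a 95% interval of 0.34 to 1.40 and an adjusted p of 0.344. LOC111343776 (Spis_XP_022806701_1) had cUA libraries at 88.01, 123 and 205 CPM and cGAMP libraries at 121, 286 and 436 CPM. Its log2 difference was 1.09 ± 0.32 (SE, 95% interval 0.40 to 1.78, adjusted p = 0.354), and cGAMP 2B was again the library that overlapped. Spis_XP_022795357_1 had cUA libraries at 44.7, 52.8 and 70.1 CPM against 64.5, 69.1 and 96.6 CPM with cGAMP, where cUA 1B alone reached into the cGAMP range. LOC111339844 (Spis_XP_022802305_1) had 46.4, 68.0 and 84.7 CPM with cUA and 54.6, 118 and 168 CPM with cGAMP, and in it cGAMP 2B and cGAMP 2C overlapped the cUA libraries. Over the alternatives the adjusted p of these 4 members ran from 0.0274 to 0.788. The first 3 were among the 11 called without control 1A and cUA 2A. LOC111339844 overlaps a model on its own strand by 21858 bases, so reads of the pair may have been split.

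One member had all 6 cGAMP libraries above all 6 cUA libraries by total counts, beside 0.154% of tested models, and none did so with TMM-scaled CPM. It was LOC111334334 (Spis_XP_022795773_1), named after its values were seen. Its cUA libraries lay at 54.0, 59.2 and 66.6 CPM and its cGAMP libraries at 67.1, 78.4 and 91.8 CPM, over controls of 16.99 to 31.9 CPM. Its log2 difference was 0.44 ± 0.17 (SE, adjusted p = 0.493), and it was the member with the smallest adjusted p, 0.0166, without control 1A and cUA 2A. It lies wholly within a model of the same strand, Spis_XP_022795772_1, which went from 56.6 CPM in controls to 47.7 CPM with cUA and 29.7 CPM with cGAMP on average. Nothing in the sources says how reads shared by such pairs were counted.

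In 9 members the mean was higher with cUA, though by little, and the 3 named here were chosen after their values were seen. The lowest ratios of cGAMP to cUA were 0.833 in Spis_XP_022781527_1 and 0.838 in LOC111325017 (Spis_XP_022784447_1). Spis_XP_022781527_1 had cUA libraries at 91.8, 104 and 171 CPM and cGAMP libraries at 65.0, 98.4 and 128 CPM, which overlapped over most of their range. Its log2 difference was -0.21, with an interval of -0.93 to 0.50, and its span lies within another model of the same strand, which averaged 62.6 CPM in controls, 194 CPM with cUA and 154 CPM with cGAMP. LOC111325017 had cUA libraries at 43.6, 75.8 and 84.9 CPM and cGAMP libraries at 43.5, 58.0 and 72.7 CPM, with an interval of -0.80 to 0.29. LOC111330649 (Spis_XP_022791284_1) had almost equal means, 69.8 ± 6.96 CPM with cUA and 69.5 ± 9.74 CPM with cGAMP (SD, n = 6).

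The labelled colonies were compared over all treatments. The rule limits this comparison too, since a wide colony difference would make a model's control and treated libraries overlap. No member and no other model differed between the labelled colonies in edgeR's test, 0% of those tested. An unadjusted p under 0.05 was found in 3 of 88 members and 1773 of 21375 models. DESeq2 called 3 models and limma-voom 0, with no member among them. The smallest p was that of LOC111325339 (Spis_XP_022784917_1), with a log2 difference of 0.38 ± 0.15 (SE, labelled colony 2 higher, adjusted p = 0.585). Spis_XP_022783981_1, the member with the highest score, averaged 12.3 CPM in the controls of labelled colony 1 and 33.0 CPM in those of labelled colony 2, with a log2 difference over all treatments of 0.88 ± 0.40 (SE, adjusted p = 0.59).

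These colony contrasts rest on labels that 5 libraries did not follow on the second axis. The 5 libraries on the other side of the second axis were found from these same values, so leaving them out builds a difference between the rest into the contrast, and its calls are given as a description. Without them, 17.5% of 22344 models were called between the labelled colonies. Of the members 14 were called, 12 higher and 2 lower in labelled colony 2, a share of the 88 near the background. LOC111344486 (Spis_XP_022807459_1) had a log2 difference of 1.09 there. The members lower in labelled colony 2 were Spis_XP_022790068_1 and Spis_XP_022794017_1, at -0.78 and -0.61. Without control 1A alone 1 member was called, LOC111324647 (Spis_XP_022783993_1), at an adjusted p of 0.0496, beside 1.25% of models, so that 1 call is near the background.

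The response to cUA was then compared between the labelled colonies. The rule asked every treated library to lie above every control in both colonies, and this limits the comparison. No member passed, and 0% of models did. An unadjusted p under 0.05 was found in 13 of 88 members and 2571 of 21375 models, so the members were near the background. All 13 had a larger cUA effect in labelled colony 2, but with total counts alone there were 4 such members, 3 of them with a larger effect there. DESeq2 called 232 models, 1.09% of those tested, 3 of them members. Those were LOC111323855 (Spis_XP_022783033_1), Spis_XP_022786308_1 and LOC111326236 (Spis_XP_022785917_1), with adjusted p-values of 0.00828, 0.0178 and 0.0413, and limma-voom called none. LOC111323855, a single coding segment, averaged 99.6 and 65.1 CPM in the controls of labelled colonies 1 and 2 and 210.3 and 406 CPM with cUA. Its cUA libraries were 154, 202 and 274 CPM in labelled colony 1 and 525.9, 387 and 306 CPM in labelled colony 2, so these did not overlap. The edgeR estimate of the difference was 2.19 ± 0.49 on the log2 scale (SE, adjusted p = 0.318). It was also the 1 member called by edgeR without cUA 2B, beside 0.422% of models.

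Across the members this difference had a median of 0.58 with 80 of 88 positive, against 52.93% of all tested models, but its sign depended on the scaling. With total counts alone the median was -0.08 with 35 members positive, while over all tested models it was -0.43 with 29.53% positive, so members and background moved together. Without control 1A and cUA 2A, 35 members were positive at a median of -0.12, beside 0.04 over all models with 52.62% positive. In those 2 libraries the median model of the same range of control level lay at -0.53 and -0.69 relative to the control mean on the log2 scale. For LOC111326236 the highest cUA library was cUA 2A at 401 CPM, and the other cUA libraries ended at 138 CPM.

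The response to cGAMP was compared between the labelled colonies in the same way and with the same limit from the rule. A positive difference was found in 47 of 88 members, beside 56.83% of all tested models. Without control 1A it was 20 members, beside 53.67% of models. No member and 0% of models passed. An unadjusted p under 0.05 was found in 6 of 88 members and 1119 of 21375 models, so the members were near the background. DESeq2 called 3 models and no member, and limma-voom called 0. Of the 6 members 5 had a smaller effect in labelled colony 2. LOC111321016 had the smallest p. Its cGAMP libraries were 528, 814 and 940.2 CPM in labelled colony 1 and 376, 230.1 and 264 CPM in labelled colony 2, without overlap. The estimate was -1.96 ± 0.51 on the log2 scale (SE, adjusted p = 0.884). LOC111340507 was next at -1.16 ± 0.42 (SE, adjusted p = 0.884), with cGAMP means of 946 and 522 CPM in the labelled colonies and control means of 174 and 232 CPM.

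Specimens of the same treatment differed by moderate amounts. The median SD of log2 CPM over the members was 0.438 in controls, 0.336 with cUA and 0.410 with cGAMP. Models of the same control level had 0.460, 0.511 and 0.340. None of these differences was tested. The members' spread follows in part from the rule, which removes models that are low in any treated library or high in any control. With TMM-scaled CPM the members had 0.442, 0.502 and 0.400, against 0.374, 0.443 and 0.333 in those models, so the order with cUA turned with the scaling. The members most like Spis_XP_022783981_1 over 18 libraries, by Pearson's r of log2 CPM, were LOC111340346 at 0.981, LOC111326010 (Spis_XP_022785671_1) at 0.974 and Spis_XP_022786790_1 at 0.970. These values share the step between control and treated libraries that chose the members. Over the 12 treated libraries alone they were 0.873, 0.903 and 0.726.

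Structure was not part of the rule. All 88 members came from the predictor Gnomon, as did 98.7% of the models with the same range of control level. Their coding length had a median of 1693.5 bases, from 303 to 16182, against 1410 in that range. The median number of coding segments was 7 against 9, and 7 members, or 7.95%, had a single segment, against 5.39%. The members were also set beside models chosen by the same rule at a lower level, from 1 to under 20 CPM in controls. Those 81 models had a median of 3 segments and 1062 coding bases, and 18.52% of them had a single segment. At least 10 segments were found in 8.64% of them and in 36.36% of the members. Among all models of the members' own control level 45.64% had at least 10 segments, and among all tested models 26.21%, with 13.68% in a single segment. The median ratios of the 81 models chosen at the lower level were 8.30 with cUA and 11.6 with cGAMP. The mean was higher with cGAMP in 72 of these 81 models.

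Members lay on 72 scaffolds, and 29 of them shared one with another member, over 13 scaffolds. Members were next to each other in 3 pairs. LOC111344486 and LOC111345607 (Spis_XP_022808627_1), which both belong to the 12 highest scores, are divergent on NW_019217800.1 (90889 to 93925 on the minus strand and 95092 to 98413 on the plus strand), with 1166 bases between their ends. LOC111344486 had controls at 36.2, 50.2 and 119.6 CPM, cUA libraries at 300.0, 423 and 620 CPM and cGAMP libraries at 402, 695 and 1444 CPM. LOC111345607 had controls at 13.8, 24.3 and 45.7 CPM, cUA libraries at 88.1, 187 and 277 CPM and cGAMP libraries at 153, 268 and 454 CPM. Both had their highest control in control 2C, their highest cUA library in cUA 1B and their highest cGAMP library in cGAMP 2A. Pearson's r of their log2 CPM over the 12 treated libraries was 0.899, and these libraries share depth and composition.

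Another pair overlaps on opposite strands of NW_019217920.1, by 2842 bases. Spis_XP_022790076_1 (148108 to 154052, minus strand) had tight controls of 38.8, 49.0 and 57.3 CPM, cUA libraries at 214, 281 and 384 CPM and cGAMP libraries at 257, 441 and 573 CPM. Its treated libraries kept 3.73-fold above its highest control, the widest gap of the 88. Spis_XP_022790068_1 (151211 to 159781, plus strand) had looser controls of 10.2, 21.6 and 51.4 CPM, cUA libraries at 60.3, 107 and 159 CPM and cGAMP libraries at 89.5, 140.5 and 181 CPM. Over the treated libraries their r was 0.337, and in cUA 2A and cUA 2C the first was at its highest with cUA while the second was at its lowest. The library kit marks strand, but whether counting used it is not given in the sources used here, so reads of the overlap may have entered both. Spis_XP_022793117_1 (LOC111332108) and Spis_XP_022793108_1 (LOC111332103) are on the same strand of NW_019217969.1, 1946 bases apart, and had an r of 0.680.

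**Figure D5:**
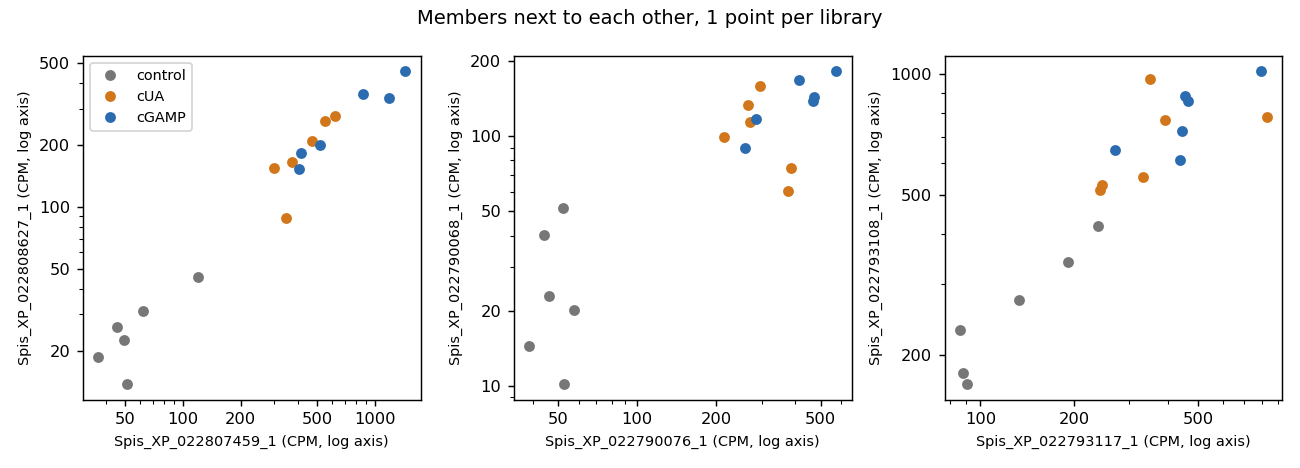
CPM on log axes of the members of each adjacent pair, 1 point per library, gray for control, orange for cUA and blue for cGAMP. Points of the divergent pair on the left lie near 1 line over all libraries, and in the overlapping pair in the middle 2 cUA points fall below the other treated points.

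The models next to members were counted as well. Of 151 tested neighbours that are no members, 26, or 17.2%, were called higher with cUA, and 33, or 21.9%, with cGAMP, beside the 5.91% and 9.22% of all tested models. These shares were not tested, and both comparisons share the controls. Examples, chosen after their values were seen, were Spis_XP_022782792_1 beside LOC111323650, with ratios of 7.89 and 12.02 at 18.7 CPM in controls, and Spis_XP_022802160_1 beside LOC111339711, with ratios of 9.11 and 12.2 at 6.19 CPM. Both were under the control level the rule asked for. The called neighbours Spis_XP_022804214_1 and Spis_XP_022794776_1 overlap their member on the same strand, by 2557 and 660 bases. Spis_XP_022781520_1, called with cUA only, shares 3216 bases with Spis_XP_022781527_1 on the same strand. Reads of these pairs may not be separate.

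How many models belong to the set depended on the scaling. With TMM-scaled CPM 60 of the 88 members met the same rule, and with upper quartile scaling 59. With labelled colony 1 alone 54 stayed members, and with labelled colony 2 alone 44. In such a subset a member's groups stay apart by construction. Members leave there only through the limits on control level or rank.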

How the data were processed

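RNA of 18 libraries was extracted on columns with DNase treatment, enriched on oligo(dT) beads and made into libraries with a directional kit, per the labels' protocols. The authors deposited whole-number counts of reads per gene model, not normalized, and a gene annotation. The submitters' processing notes list STAR, featureCounts and DESeq2. Their versions and settings, the genome build, the strand setting and the treatment of shared reads are not given there or in the labels. Coordinates are those of the deposited annotation; coding length and segments were read from it.

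From the counts, CPM was computed on column totals. Models passing filterByExpr on the 6 groups of treatment and colony (21375) were tested with edgeR 4.0.16 in R 4.3.3, using TMM factors, robust quasi-likelihood fits and colony plus treatment (14 residual degrees of freedom), with an interaction model for colony differences. Adjusted p-values are Benjamini-Hochberg over all tested models, with calls below 0.05. Intervals of 95% use 14 degrees of freedom. DESeq2 1.42.0 and limma 3.58.1 were alternatives. Log2 CPM for axes used a prior count of 2. The fits were tested on simulated data.

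The members and lists were chosen with earlier results of these data known. Members named were those with the highest scores, highest control levels, smallest p in each comparison, widest and narrowest treated ranges, those at the limits of the rule, adjacent ones and the extremes of length; any other model was picked with its values in view. Of the members 57 matched a RefSeq table of jaStyPist1.2 by protein accession, 13 with the same version; this table gave symbols alone. Lists by product name, cell type markers, promoter motifs and protein comparisons were not used here, since no description or sequence was at hand, so the labelled tissue was not checked against markers.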

Additional observations from a re-analysis of the deposited data

Results flagged for a closer look

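The 105 groups of 6 libraries examined, the CPM of each of 34 named members and the members' summed share of counts in each of 3 treatments, held 13 in which 1 library stood far from the other 5, by Dixon's criterion at the 95% level. For normal, independent values chance alone marks about 1 in 20 groups. CPM need not be normal, the groups share libraries, and some members were named for wide treated ranges. The 13 can therefore not be set against that rate. Of the 13 values, 5 came from cUA 2A, 3 from control 1A, 2 each from control 2C and cGAMP 2A and 1 from cUA 2C. The causes were not tested.

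In cUA 2A, Spis_XP_022786308_1 stood at 3123.7 CPM with the next cUA library at 411.3 CPM, and Spis_XP_022797663_1 at 636.9 against 298.4 CPM. In the same library LOC111326236 (Spis_XP_022785917_1) stood at 401.0 against 138.3 CPM, LOC111328927 (Spis_XP_022789210_1) at 1351.2 against 841.8 CPM and LOC111332108 (Spis_XP_022793117_1) at 832.1 against 392.6 CPM. LOC111332108 was also high in cGAMP 2A, at 798.2 against 464.3 CPM, as was Spis_XP_022795357_1 at 96.6 against 75.7 CPM.

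In control 1A, LOC111336823 (Spis_XP_022798721_1) stood at 1205.4 CPM against 790.2 in the next control and LOC111328927 at 554.5 against 312.6 CPM, while LOC111339844 (Spis_XP_022802305_1) was low there, at 14.8 against 27.9 CPM. In control 2C, LOC111344486 (Spis_XP_022807459_1) stood at 119.6 against 62.2 CPM and LOC111321016 (Spis_XP_022779509_1) at 73.9 against 37.6 CPM. In cUA 2C, Spis_XP_022809337_1 stood at 351.5 against 269.2 CPM.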

How the results depend on the processing

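Under scaling by DESeq2 size factors 58 of 88 members met the rule, and within labelled colony 1 or 2 alone 54 or 44. Leaving out 1 library at a time kept 66 to 88, lowest without control 1A. With fewer libraries a member's groups stay apart by construction. Members then leave only through the limits on control level or rank, so these counts do not show members failing in a subset. Members called between cUA and cGAMP numbered 0, or 11 without control 1A and cUA 2A. Members called between labelled colonies numbered 0, 0 to 1 leaving out 1 library, and 14 without the 5 libraries on the other side of the second axis, an alternative chosen after seeing the data. For the colony difference in the cUA response, DESeq2 called 3 members, and leaving out 1 library gave 0 to 1, the 1 without cUA 2B, beside 0.422% of models; for the cGAMP response all alternatives gave 0. Members called higher with cUA ranged from 70 to 88 leaving out 1 library, and numbered 68 with the cGAMP libraries left out of the fit. Same-numbered specimens of different treatments were not paired: 6 of 18 pairs correlated above 0.1 (range -0.447 to 0.381) and 7 of 18 libraries correlated best with their own number. With the replicate block 81 members were called higher with cUA, 88 with cGAMP and 0 between the compounds. Of 52 values of named members, compared 1196 times with an alternative setting, 1168 comparisons kept direction and call, 8 gained and 20 lost the call, and none changed sign. Most of the 52 values are differences from control, which the rule used, and the rest were picked for the smallest p. The steady signs therefore follow largely from the choice. Lost calls were those with cUA of Spis_XP_022786308_1, LOC111328927, LOC111332103 and Spis_XP_022798271_1. The smallest count of a member was 283, which the limit on control level largely sets; precision otherwise rests on 6 libraries per treatment from 2 colonies.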
